A study of Homo sapiens with 3 samples.

Results

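The ECI1 promoter is 1 of 13 endogenous promoters in a CRISPR-Cap experiment on HEK293T, an established human embryonic kidney cell line. Its members were taken as every line of the deposited list with the target name ECI1, which gave 2727 capped RNA 5′ ends of 131949 in all. In CRISPR-Cap, Cas9 protein with 1 guide RNA per target is delivered to the cells in repeated transfections, and the repair of the cut leaves small deletions in the promoter. The capped 5′ ends are then read by reverse transcription from a primer in the gene, so that each end shows where transcription started and which allele it came from. The list pools 2 libraries, both from HEK293T cells that received Cas9 and guides, and has no column that separates them. Edited and unedited alleles were therefore compared within the same treated cells, and mock-transfected cells were not analysed here.

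ECI1 encodes enoyl-CoA delta isomerase 1, a mitochondrial matrix enzyme that moves the double bond of unsaturated fatty acids so that beta-oxidation can go on. The gene lies on the minus strand of chromosome 16, so upstream means a higher coordinate. RNA polymerase II promoters often use several start sites within a short stretch, and elements downstream of the start can help to set which of them are used. The first codon of ECI1 lies inside such a candidate element: the letters AAGATGGC, which contain the core of the motif bound by the zinc-finger factor YY1, cover positions 2251562 to 2251569, and the A of the start codon is base 2251566. On either strand, these 8 letters are found in 2.89% of 35116 RefSeq promoter windows of 300 bases. On the gene's strand, 1.27% of the windows hold them between 10 bases before and 50 bases after the annotated start. A match is a description of the sequence and not evidence of binding.

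The window that carries the starts and the deletions is shown from RefSeq (GRCh38.p14, minus strand, chr16:2251565-2251594, 30 bases, 5′ to 3′). In GENCODE release 29 it lies in the first exon of an ECI1 transcript (2251515 to 2251614), whose 5′ untranslated part runs down to 2251567. In the line of starts, capitals mark the 4 positions with the most unedited ends. In the other lines, capitals mark the bases missing from the named deletion, chosen as the dominant deletion and the 5 next by number of ends.
starts: GAcCtttAtcccgcgcgttgcggtcaagat
dominant deletion, 5 bases: gacctttatcccgcgcgTTGCGgtcaagat
deletion of 7 bases, ending at the same base: gacctttatcccgcgCGTTGCGgtcaagat
deletion of 7 bases, shifted: gacctttatcccgcgcGTTGCGGtcaagat
deletion of 6 bases: gacctttatcccgcgcgtTGCGGTcaagat
deletion of 9 bases: gacctttatcccgcgcGTTGCGGTCaagat
deletion of 8 bases: gacctttatcccgcgcGTTGCGGTcaagat

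Edited ends made up 1869 of the 2727, or 68.5% (Wilson 95% interval 66.8 to 70.3%), and 858 were unedited. The edited ends carried 91 distinct deletions, of which 36 were seen once. The dominant deletion removed 5 bases, 2251573 to 2251577, and held 917 edited ends, 49.1% of them (46.8 to 51.3%). It was followed by a deletion of 7 bases, 2251573 to 2251579, with 318 ends (17.01%, 15.4 to 18.8%). These 2 deletions end at the same downstream base and differ by 2 bases on the upstream side. The median deletion was 5 bases long, the longest 20, and 133 edited ends had lost 10 or more.

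The deletions clustered at 1 edge. An NGG triplet, the neighbouring sequence that Cas9 needs, lies at 2251572 to 2251574, just downstream of the upstream edge of the dominant deletion. The guide sequence itself was not used here. Of the edited ends, 97.2% (1816) carried a deletion that reached base 2251577 or base 2251578 in at least 1 equivalent placement. These bases were set by the upstream edge of the dominant deletion, so its 917 ends are counted by definition. Both leading deletions can be written at more than 1 place: each can be moved upstream by 3 bases without changing the allele, since the GCG that ends the deleted stretch also stands just before it. Over all alleles, 40 of 91 deletions could be moved upstream and 0 downstream, so the deposited edges are the lowest coordinates possible.

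**Figure D1:**
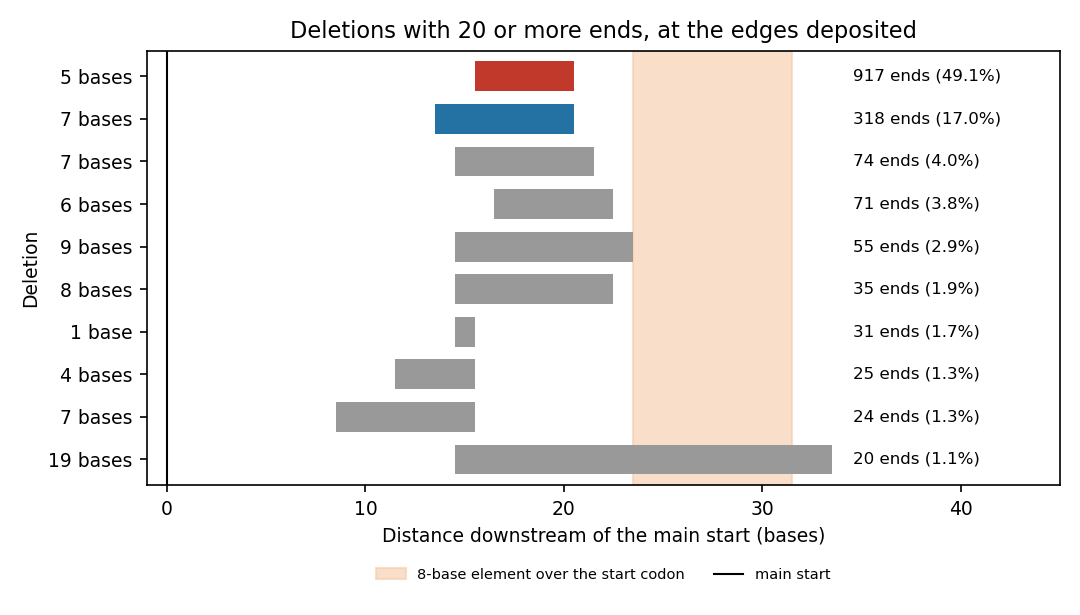
The 10 deletions with 20 or more ends, each a bar over the bases it removes, at the deposited edges, by distance downstream of the main start in bases; the number of ends and the share of the 1869 edited ends stand to the right. The shaded band is the 8-base element over the start codon; the dominant deletion (red, 917 ends) and the leading 7-base deletion (blue, 318 ends) stop short of it.

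The dominant deletion left the element whole and brought it closer to the starts. On unedited alleles the upstream end of the element lies 24 bases downstream of the main start, with 3 bases between the dominant deletion and the element. On the dominant allele the distance is 19 bases, and on the leading 7-base allele it is 17. Only 106 edited ends (5.67%, 4.71 to 6.81%), over 27 deletions, came from alleles that no longer held the 8 letters. In 59 edited ends the deletion reached the start codon.

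Unedited transcription used a small group of starts. Position 2251593, the main start, held 467 of 858 unedited ends (54.4%, 51.1 to 57.7%). Position 2251591, 2 bases downstream, held 172 (20.05%, 17.5 to 22.9%), position 2251587, 6 bases downstream, held 86 (10.02%, 8.19 to 12.2%), and position 2251594, 1 base upstream, held 57 (6.64%, 5.16 to 8.51%). The Wilson intervals of the lowest of these 4, at 2251594, and the next, at 2251587, overlap slightly, while those of the upper positions do not. Every other position held at most 12 unedited ends. The starts were therefore concentrated within 8 bases, with a thin scatter farther upstream.

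The letters at these starts are an A after a G at the main start, a C after a C at 2251591, an A after a T at 2251587 and a G after a C at 2251594. Most promoters start on a purine after a pyrimidine, and 20.05% of the unedited ECI1 ends did so. This reading rests on positions counted from 0 in the list. Adding 1 base put 56.6% of the unedited ends of the 5 other minus-strand targets with a promoter sequence on such a pair, against 0.258% with 2 bases added. These 5428 ends were pooled, and most came from 1 target, HIST1H1D, which had 5311 unedited ends. The figure therefore says little of the other targets pooled with it. At ECI1 alone, 2 bases would have given 55.7%, so the letters named for its starts hold only if its positions were counted as at HIST1H1D. The start coordinates, and the distances from them to the deletions and the element, rest on the same count.

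Starts on edited alleles were compared with unedited ones only where the read keeps at least 8 bases ahead of the deletion, since no edited end of ECI1 kept fewer than 7. For the dominant deletion this means position 2251585 and upstream, which took in all of its 917 ends and 852 of the 858 unedited ends. The ends in this window are the units of each test. Because the list does not separate libraries and may hold PCR copies, all intervals and p-values cover counting error only and say nothing of the spread between cultures. If the 2 libraries differed in their starts and in their mixture of alleles, that could not be told apart from an effect of the deletion.

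The main start was used less on the dominant allele. It took 413 of 917 ends (45.04%, 41.8 to 48.3%) against 467 of 852 unedited ends (54.8%, 51.5 to 58.1%). The difference was −9.77 percentage points (Newcombe 95% interval −14.4 to −5.11), and the odds of a start there were 0.676 times those on unedited alleles (0.560 to 0.815). Fisher's exact test, two-sided, gave p = 4.25e-05, or 0.000128 adjusted by Benjamini-Hochberg over the 3 comparisons of classes. The main start nonetheless stayed the most used position of the dominant allele.

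Beside the main start, 1 close neighbour changed. Of 11 positions with enough ends to test, 2 passed Fisher's exact test after adjustment over positions (18.2%). The other was 2251596, 3 bases upstream, a G after a C, which held 25 of 917 dominant-allele ends (2.73%) against 5 of 852 unedited ends (0.587%). The difference was 2.14 points (0.969 to 3.45, adjusted p = 0.00205 in Fisher's exact test). Position 2251591 held 24.8% against 20.2% (4.57 points, 0.669 to 8.43), and position 2251594 held 9.38% against 6.69% (2.69 points, 0.140 to 5.23). Their adjusted p-values, 0.0836 and 0.122 in Fisher's exact test, missed the threshold of 0.05. Position 2251587 held 7.96% against 10.1% (−2.13 points, −4.85 to 0.540).

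No shift of the starts as a whole was detectable at this depth. The mean start on the dominant allele lay 0.370 bases farther upstream than on unedited alleles, with a 95% interval of −0.153 to 0.894. Starts 8 to 19 bases upstream of the deletion made up 93.3% of the dominant-allele ends and 94.8% of the unedited ends, the rest lying 20 or more bases upstream. This difference of −1.49 points (−3.71 to 0.737) did not pass Fisher's exact test (adjusted p = 0.288), and its interval spans 0.

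**Figure D2:**
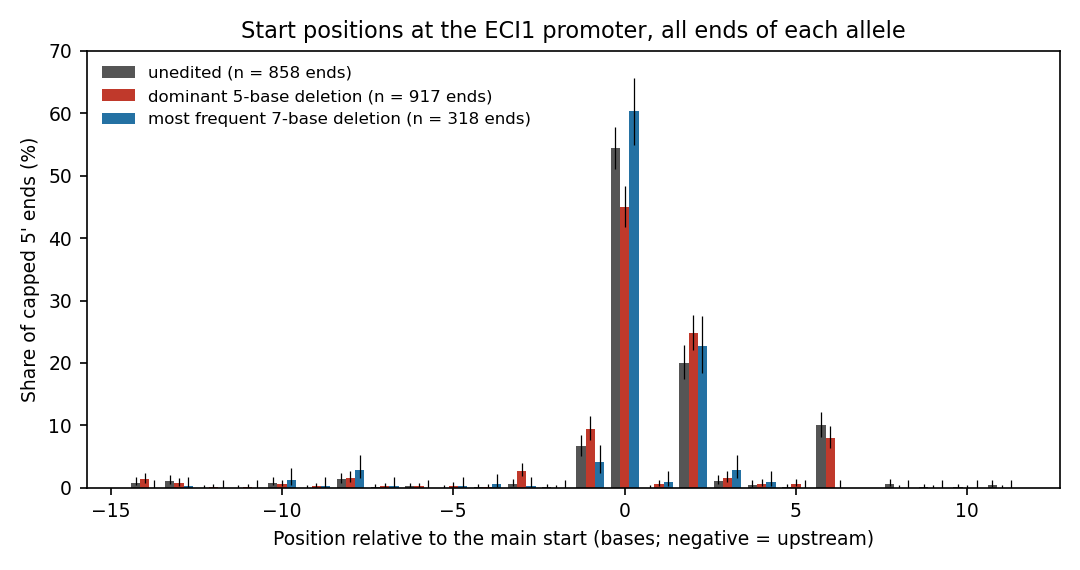
Share of capped 5′ ends in percent at each position from 15 bases upstream to 11 bases downstream of the main start, for unedited alleles (858 ends), the dominant 5-base deletion (917 ends) and the leading 7-base deletion (318 ends); bars are shares of all ends of that allele and lines are Wilson 95% intervals. At the main start the dominant allele (45.04%) lies below the unedited ends (54.4%) and the 7-base allele (60.4%), and 6 bases downstream the 7-base allele has no ends.

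The leading 7-base allele did not show the same fall, although it removes the same 5 bases and 2 more. In the window that starts 8 bases upstream of its own edge, position 2251587 and upstream, its main start held 192 of 318 ends (60.4%, 54.9 to 65.6%) against 467 of 847 unedited ends (55.1%). This was 5.24 points higher, with an interval of −1.16 to 11.5 (p = 0.112 in Fisher's exact test). Over the same positions the dominant allele held 45.04%, so the 2 edited alleles differed by −15.3 points (−21.5 to −8.99). Fisher's exact test of that difference gave p = 2.63e-06, or 1.05e-05 adjusted over 4 comparisons of alleles. These comparisons of the 2 leading alleles were chosen after the values were seen.

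The start at 2251587 lay at the shortest distance at which edited ends were seen. Position 2251587 held 73 of 917 ends on the dominant allele and 0 of 318 on the 7-base allele, which allows a share of up to 0.943%. At the deposited edges that start keeps 10 bases ahead of the dominant deletion and 8 ahead of the 7-base one. With each deletion moved to its highest coordinate the same start keeps 7 and 5, and in that placement no edited end of ECI1 kept fewer than 7. The 0 at 2251587 thus falls at a distance at which no ECI1 allele gave ends, and whether that start was used less on the 7-base allele was not tested.

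With that start left out the 2 alleles still differed. From position 2251590 upstream, 8 or more bases from either deletion in its highest placement, the main start held 49.6% of 832 dominant-allele ends, 60.95% of 315 ends of the 7-base allele and 61.8% of 756 unedited ends. The dominant allele was lower than the unedited ends by −12.1 points (−16.9 to −7.25) and than the 7-base allele by −11.3 points (−17.5 to −4.86), with adjusted p-values of 4.84e-06 and 0.00143 in Fisher's exact test. The 7-base allele and the unedited ends differed by −0.820 points, with an interval of −7.27 to 5.48. The estimate for the dominant allele, −12.1 points, lies outside this interval, while the upper end of its own interval, −7.25, lies just inside.

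In the same window 7 positions were tested between the 2 edited alleles, the main start among them. Position 2251594 held 10.3% of the dominant-allele ends and 4.13% of those of the 7-base allele (6.21 points, 2.83 to 9.03, adjusted p = 0.00250 in Fisher's exact test). Position 2251596 held 3.00% (25 ends) and 0.317% (1 end; adjusted p = 0.00787 in Fisher's exact test). Position 2251607, 14 bases upstream of the main start, held 13 of 832 and 0 of 315 ends (adjusted p = 0.0438 in Fisher's exact test). These 3 upstream positions were more used on the dominant allele, while 2251601, also upstream, held 1.80% against 2.86% (−1.05 points, −3.64 to 0.717). At 2251594 the 7-base allele also lay below the unedited ends, 4.13% against 7.54% (−3.41 points, −6.12 to −0.146, adjusted p = 0.292 in Fisher's exact test). Position 2251591, downstream of the main start, differed by 4.43 points with an interval of −1.32 to 9.74.

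The remaining deletions were rarer, and their main-start shares lay on both sides of the unedited value. In the window fixed by the dominant deletion, 216 ends from 34 other deletions could be compared, since 736 ends came from deletions that reach farther upstream. The main start held 102 of these 216 (47.2%, 40.7 to 53.9%), −7.59 points from the unedited share (−14.9 to −0.143). The adjusted p was 0.0712 in Fisher's exact test, over the threshold, and of 7 positions tested 0 passed (0%). At an unadjusted p under 0.05 the main start was the only position of the 7 (p = 0.0475 in Fisher's exact test). The dominant deletion and these others differed by −2.18 points (−9.56 to 5.12, adjusted p = 0.595 in Fisher's exact test), and of 8 positions 0 passed (0%).

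Matching each of the other deletions to the unedited ends at its own distance, so that almost all of their ends enter, put their main start −3.07 points below the unedited value. With the 7-base allele left out and deletions that reach up to the same base as it let in, the main start held 50.0% of 488 ends against 55.1%. That difference was −5.14 points (−10.7 to 0.419; adjusted p = 0.103 over the 4 comparisons of alleles, Fisher's exact test). From 2251590 upstream another set of deletions entered, those that leave 8 or more bases in every placement (453 ends). The difference there was −6.14 points (−11.9 to −0.426). For the first set it was −6.05 points over the main start and the positions upstream of it (−11.8 to −0.511; 324 ends). The adjusted p-values of these differences, 0.0528 and 0.0531 in Fisher's exact test, also missed the threshold.

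Taken singly, 1 of the 9 other deletions with 20 or more ends differed from the unedited ends (11.1%). It was the 7-base deletion 2251578 to 2251584, named after its values were seen, whose edge lies 9 bases from the main start. Only 9 of its 24 ends fell in its window, and 3 of them were at the main start, against 467 of 574 unedited ends there (81.4%; adjusted p = 0.0214 in Fisher's exact test). The other 15 ends lay outside the window, at 2251591, 7 bases from the edge. The shifted 7-base deletion 2251572 to 2251578 had 47 of 74 ends at the main start (63.5%, 52.1 to 73.6%) and the 6-base deletion 2251571 to 2251576 had 32 of 71 (45.1%, 34.05 to 56.6%). The 9-base deletion 2251570 to 2251578 had 27 of 55 (49.1%) and the 8-base deletion 2251571 to 2251578 had 19 of 35 (54.3%). With so few ends, none of these could be told from the unedited 54.7 to 55.1% of the same positions.

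**Figure D3:**
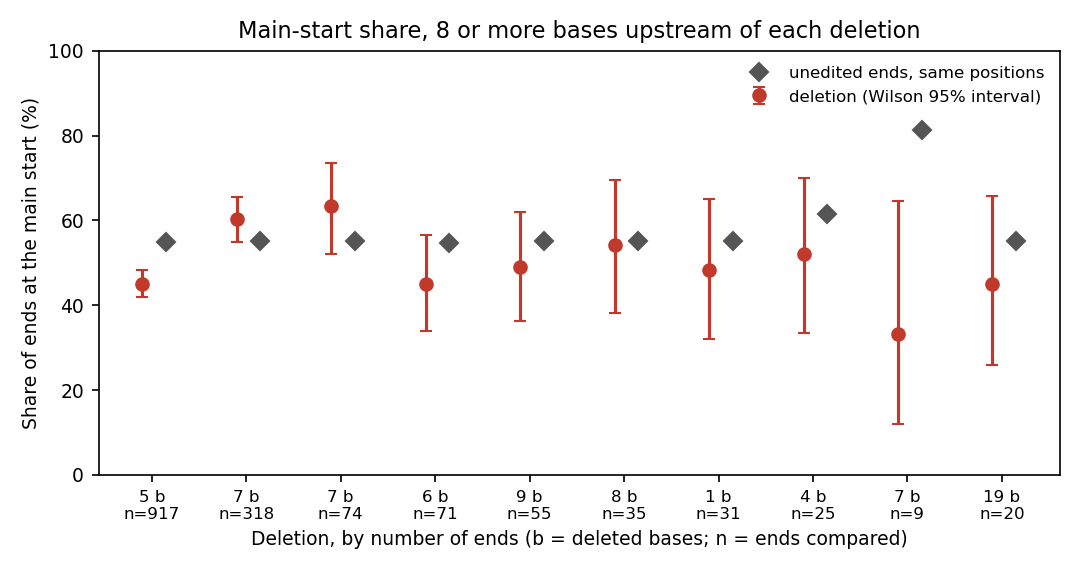
Share of ends at the main start in percent for the 10 deletions with 20 or more ends, in order of their number of ends; circles with lines are the deletion with its Wilson 95% interval and diamonds are the unedited ends at the same positions, drawn without their interval. The dominant deletion (45.04% of 917 ends) has the narrowest interval and lies below its diamond (54.8%), and the ninth deletion rests on 9 ends.

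Grouped by length over the positions from 2251590 upstream, the main-start share neither rose nor fell steadily with the number of deleted bases. It was 50.0% of 58 ends with 1 or 2 bases lost, 63.6% of 33 ends (46.6 to 77.8%) with 3 or 4, 49.6% on the dominant allele, and 47.9% of 73 ends with 6 bases lost. It was 60.95% on the leading 7-base allele and 68.97% (58.6 to 77.7%) of 87 ends from other 7-base deletions. With 8 or 9 bases lost it was 53.1% of 96 ends, and with 10 or more 49.4% of 85. The 4 other 5-base deletions held 14 of 21 ends at the main start (66.7%, 45.4 to 82.8%), an interval whose lower bound lies below the dominant allele. These groups were formed after the values were seen and were not tested.

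**Figure D4:**
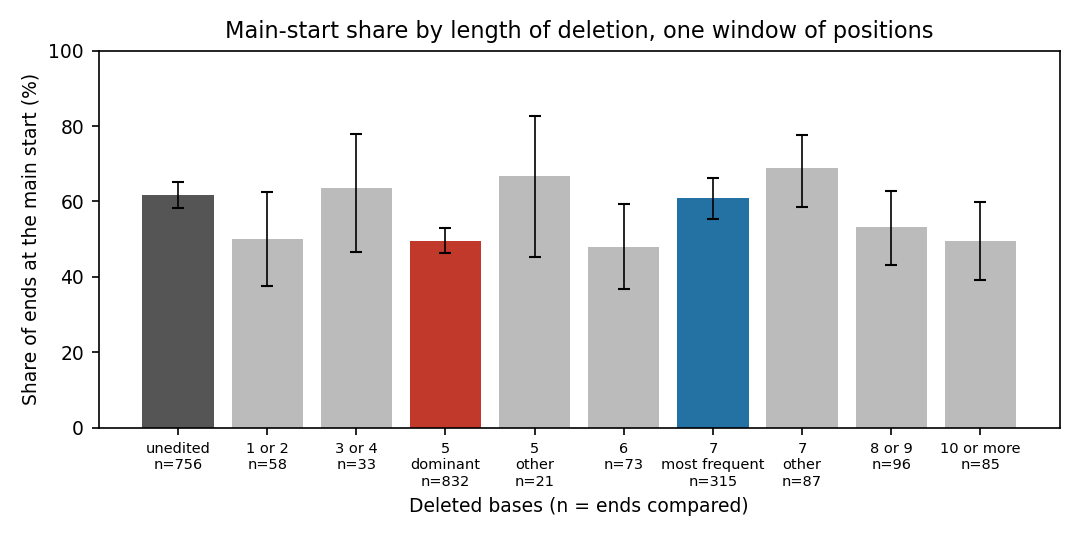
Share of ends at the main start in percent by number of deleted bases, over positions from 3 bases downstream of the main start upward, for deletions that leave 8 or more bases in every placement; bars are shares and lines are Wilson 95% intervals. The dominant 5-base deletion (red, 49.6% of 832 ends) lies below the unedited ends (dark, 61.8% of 756). The interval of the unedited ends overlaps that of every other deletion group drawn, both 7-base bars (60.95% and 68.97%) among them.

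Alleles without the 8-base element were few but also used the main start less. Over the main start and the positions upstream of it, 44 of 66 ends from 27 such deletions were at the main start (66.7%, 54.7 to 76.8%). The unedited share there was 81.4% (77.97 to 84.3%), and other deletions that keep the element, the dominant one apart, held 78.6% of 566 ends (75.06 to 81.8%). Of these 566 ends, 231 came from the leading 7-base allele, with 83.1% at the main start (77.8 to 87.4%). A comparison that leaves this allele out was not tested. Alleles without the element lay −14.7 points from the unedited ends (−27.1 to −3.97, adjusted p = 0.0262 over 3 comparisons) and −12.0 points from those that keep it (−24.4 to −1.17, adjusted p = 0.0629), by Fisher's exact test. The dominant allele, which keeps the element, held 70.6% (66.8 to 74.1%) in this window. This grouping was also chosen after the values were seen, and the part played by the length of these deletions was not tested.

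Across the series the closest promoters by geometry were C1orf63, RBM4 and TMED9, which tied as the targets with at least 100 ends of each kind. The measure was the distance from main start to the upstream edge of the target's own most frequent deletion, 16 bases at ECI1 and within 2 bases of that at the 3 others, over all 13 targets. By the same comparison of that allele with unedited ends, the main-start share changed by −9.77 points at ECI1 (−14.4 to −5.11) and by −10.8 at TMED9 (−13.1 to −8.47). It changed by −22.6 points at RBM4 (−24.5 to −20.7) and by −39.1 at C1orf63 (−42.6 to −35.5). The deletions compared were of unlike length: 5 bases at ECI1, 1 at TMED9, 8 at RBM4 and 7 at C1orf63. The interval at ECI1 overlaps that at TMED9 and not the other 2; differences between targets were not tested. At 49.1% of its edited ends, the leading deletion of ECI1 had the largest share among the 13 targets, ahead of LETMD1 at 40.1%.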

How the data were processed

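Capped 5′ ends from 2 CRISPR-Cap libraries of HEK293T were analysed from a list that the authors deposited with 1 line per end: its class, position, deletion edges and length, and target. Per the submitters' processing notes, STAR and hg38 were used. Not given in the sources used here are versions, settings and whether PCR copies were merged. RefSeq (GRCh38.p14) and GENCODE gave sequence and annotation. Lines were tallied in Python 3.11.15 with scipy 1.17.1, after adding 1 to positions. The main start is where most unedited ends lay. Classes were compared at 8 or more bases upstream of the dominant deletion by Fisher's exact test (two-sided) with Wilson and Newcombe 95% intervals, and adjusted by Benjamini-Hochberg. Positions needed 10 ends and single deletions 20. The mean position carries a normal interval.

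Named positions were the main start, those with 5% or more of a class and those passing the test; named deletions were the dominant one and the 5 next. Members and lists were chosen with earlier results of these data known. The tests were tried on simulated data with ends drawn independently, so PCR copies and differences between libraries were not covered. The STAP-seq reporter library was not analysed here.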

Additional observations from a re-analysis of the deposited data

Results flagged for a closer look

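The main-start share differed between the 2 leading alleles of ECI1, by −15.3 points on the dominant 5-base deletion against the 7-base deletion that ends at the same base. It was singled out as a difference between 2 edited alleles, compared directly over the same positions. Unedited ends do not enter that test, and the pair was chosen after the values were seen. From position 2251590 upstream, where both deletions leave 8 or more bases in every placement, the difference was −11.3 points, and over the main start and the positions upstream of it −12.5 points (−18.3 to −6.09, adjusted p = 0.000374 in Fisher's exact test over 4 comparisons of alleles). The part played by the distance between start and deletion, and by the mixture of alleles in each library, was not tested.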

How the results depend on the processing

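The lower main-start share of the dominant deletion kept its direction and passed Fisher's exact test under all 6 alternatives tried, from −12.4 to −9.39 points with adjusted p-values of 1.93e-06 to 0.000293. For the other deletions against unedited ends, 12 or more bases upstream gave −9.14 points, now past the threshold (adjusted p = 0.0331 in Fisher's exact test, and 0.0331 to 0.693 over its alternatives with a test). The dominant against the other deletions passed with all ends as tallied (−6.33 points), with deletions moved to the highest coordinate (−7.35) and, chosen after seeing the data, with edges up to the leading 7-base deletion let in (−9.06), and not with that deletion then left out (−4.96, adjusted p = 0.0818 in Fisher's exact test). The share of near starts changed direction with near set to 8 to 15 bases, which moves the main start to the far side: 3.58 points for the dominant and 5.33 for the other deletions against unedited ends, and −1.76 between them, none past the threshold. With all ends as tallied, the mean start of the other deletions lay 1.10 bases upstream of the unedited one and that of the dominant −0.660 bases from the others, and 3 and 4 positions passed in these comparisons in place of 0. With 16 or more bases, 1 position passed between dominant and other deletions. With deletions of 10 or more ends only, the edited share was 66.4% and the dominant deletion 54.1% of edited ends. The single deletions were not tested at 16 or more bases, since that window leaves out the main start for 8 of the 9. Differences in mean start, whose intervals span 0, changed sign to −0.235 bases for the other deletions against unedited ends with positions under 10 ends left out. Between dominant and other deletions they changed to −0.0623 with other deletions of 3 or more bases and to −0.279 without the most frequent of the others. No paired analysis was possible because the list does not separate the libraries, and leaving out a replicate was not possible for the same reason. Depth limits what single deletions can show: those after the leading 2 have at most 74 ends.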

Other observations

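Position 2251592, between the main start and 2251591, held 18 edited ends over 10 deletions (0.963% of edited ends, Wilson 95% interval 0.610 to 1.52%), of which 5 were on the dominant allele. It held 0 of the 858 unedited ends, with an upper Wilson 95% bound of 0.446%. The position was picked after its values were seen and was not tested. Unedited ends reached as far downstream as 2251582, and 0 of them lay downstream of the dominant deletion. An RNA that starts there does not cross the deleted bases, so its allele could not be read. This 0 is therefore no measure of start use there. GENCODE has ECI1 transcripts whose 5′ ends lie downstream of the deletion, for example at 2251572 and 2251562.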
